A study of Mus musculus with 36 samples.

Results

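The adult spinal cord was compared with the spinal cord at postnatal day 10 (P10) in RNA purified with an HA-tagged ribosomal protein. The comparison rests on 6 of the 36 libraries of the study, chosen by their labels alone: 3 from adult mice aged 2 months and 3 from P10 mice. All carried the genotype ChAT-Cre;Ribo-tag, in which Cre recombinase made under the choline acetyltransferase gene switches on the HA tag of the ribosomal protein Rpl22 in cells that have expressed Cre. Every library was the HA-tag purified fraction of spinal cord, and the labels name no treatment. The study's other 10 groups of 3 libraries were spinal cord at E15.5 and P0.5, and synapse-enriched diaphragm with or without Cre at each of 4 ages. The study's title concerns protein synthesis at the synapse and neuromuscular transmission. No spinal cord without Cre was analysed here, so RNA that enters the purification without the tag has no measured level in this tissue. The labels do not say whether replicates came from separate animals, so p-values measure the spread between these libraries, which may be technical.

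The RiboTag method pulls down tagged ribosomes with the messenger RNAs they carry, and thereby samples the messages of Cre-expressing cells inside a mixed tissue. In spinal cord, ChAT-Cre marks somatic and preganglionic motor neurons and a few cholinergic interneurons. Around the tenth day after birth, mouse motor neurons are still adjusting their synapses and channels, and central axons are being wrapped in myelin. By 2 months the circuit and most of its myelin are in place.

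Depth recovered from the values was 67.6 to 70.2 M reads (M, 1000000) in the adult libraries and 65.3 to 67.8 M in the P10 libraries, and 11.7% to 12.9% of genes had no read in an adult library, against 9.87% to 10.99% in a P10 library. At both ages replicate 3 came close to a mixture of replicates 1 and 2, with fitted weights of 0.439 and 0.561 in adult and 0.512 and 0.487 at P10. Its distance to that mixture was 1.75 counting SD in adult and 1.69 at P10, while the corresponding distance of the other libraries was 2.56 to 3.28 counting SD. Its value lay between those of replicates 1 and 2 for 58.9% of genes in adult and 60.3% at P10. Replicate 3 is called the intermediate library below, and counts are given with it and without the intermediate libraries of all 4 ages. Unless stated otherwise, p-values count it as a separate library, and they are too small if it is not independent. Its independence was not tested.

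Levels are in CPM, reads per 1000000 reads over the genes of the table. CPM does not correct for gene length, so levels were compared between ages and not between genes. Differences are adult minus P10 on the log2(CPM + 1) scale, which understates the change of low genes. Of 13373 genes tested, 3153 were higher in adult (23.6%) and 5926 were lower (44.3%) at an adjusted p under 0.05 in limma. Without the intermediate libraries these shares were 15.8% and 33%. The median difference over all genes was -0.155, and size factors from median ratios (RLE) moved it to -0.003, a shift that turned the shares into 35.3% higher and 33.6% lower. Under those factors all 3153 higher genes stayed higher and 4489 of the 5926 lower genes stayed lower. A difference of 2-fold or more was rarer, with 1.56% of genes called and higher and 7.91% called and lower, or 3% and 5.98% with RLE. The counts of each list below are to be read beside these shares over all genes. All 3 adult libraries stood above all 3 P10 libraries in 26% of genes, and below them in 46.7%. By mean level, Mbp lost most, followed by Tmsb10, a thymosin that binds free actin, with 1277, 1397 and 1316 CPM in adult, against 3212, 3994 and 3549 CPM at P10. Tmsb10 was chosen here by its loss, after the values were seen.

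The genes that define cholinergic neurons were present at both ages, and Chat itself did not pass the test with library totals. Chat, the enzyme that makes acetylcholine and the driver of Cre, had 68.1, 62.3 and 63.3 CPM in the adult libraries, against 73.8, 56.9 and 63.9 CPM in the P10 libraries. The libraries overlapped, and the log2 difference was 0.00 with an adjusted p of 0.997 in limma, or 0.19 with RLE factors and an adjusted p of 0.0395. Slc18a3, the vesicular acetylcholine transporter, had 166, 170.2 and 173 CPM in adult, against 162, 144 and 151 CPM at P10, and its difference did not pass the limma test (adjusted p = 0.0851), but did with RLE factors (adjusted p = 0.000735). Slc5a7, the high-affinity choline transporter, rose (log2 difference 0.32 ± 0.08 (SE), limma adjusted p = 0.00364). Rpl22, whose own message carries the tag, had 37.5 ± 0.8203 CPM in adult and 39.998 ± 1.31 CPM at P10 (SD, n = 3 each) and passed in neither scaling. Of the 33 tested genes of motor neuron and cholinergic identity, 12 rose and 8 fell (10 and 5 without the intermediate libraries, 20 and 5 with RLE), with a median difference of 0.12. Of the other motor neuron markers, chosen after their values were seen, the transcription factor Isl1 had 23.97 ± 1.15 CPM in adult and 21.7 ± 0.498 CPM at P10, its partner Mnx1 had 7.54 ± 0.354 CPM in adult and 5.23 ± 0.408 CPM at P10, and the filament protein Prph had 1334 ± 28.2 CPM in adult and 1413 ± 35.4 CPM at P10 (SD, n = 3 each). Motor neuron markers were present in every library, beside messages of other spinal cells that are described below.

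Uts2, the precursor of the peptide urotensin II, which cholinergic motor neurons make, had 433, 517 and 469 CPM in the adult libraries, against 135, 124 and 127 CPM in the P10 libraries. Every adult library stood above every P10 library (log2 difference 1.86 ± 0.09 (SE), limma adjusted p = 9.11e-11). Spp1, osteopontin, a secreted phosphoprotein found in fast alpha motor neurons, had 1304, 1350.4 and 1318 CPM in adult, against 452, 351 and 386 CPM at P10. It rose by a similar size (log2 difference 1.75 ± 0.08 (SE), limma adjusted p = 9.12e-11). Ahnak2, a large scaffold protein, had 37.02, 40.8 and 39.3 CPM in adult, against 12.3, 9.53 and 11.2 CPM at P10 and rose too (log2 difference 1.74, limma adjusted p = 9.29e-08). Etv4, an ETS transcription factor that shapes motor pools during limb innervation, fell to 0.992, 1.32 and 1.46 CPM in adult, against 5.05, 5.27 and 5.097 CPM at P10. Agrn, the proteoglycan that clusters acetylcholine receptors on muscle, had 7.88, 7.39 and 7.39 CPM in adult, against 20.7, 20.7 and 20.4 CPM at P10, and was chosen after its values were seen. All 3 adult libraries lay below all P10 libraries for both Etv4 and Agrn. Among markers of motor neuron subtype, also chosen after their values were seen, Mmp9 of fast motor neurons had 20.4 ± 0.604 CPM in adult and 18.5 ± 3.06 CPM at P10, and Chodl had 195 ± 6.19 CPM in adult and 222 ± 4.87 CPM at P10. Mmp9 did not pass the limma test with library totals (adjusted p = 0.186) but was higher with RLE factors (log2 difference 0.33, adjusted p = 0.00334), while the small fall of Chodl (log2 difference -0.18, limma adjusted p = 0.0133) was 0.01 with RLE factors.

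**Figure D1:**
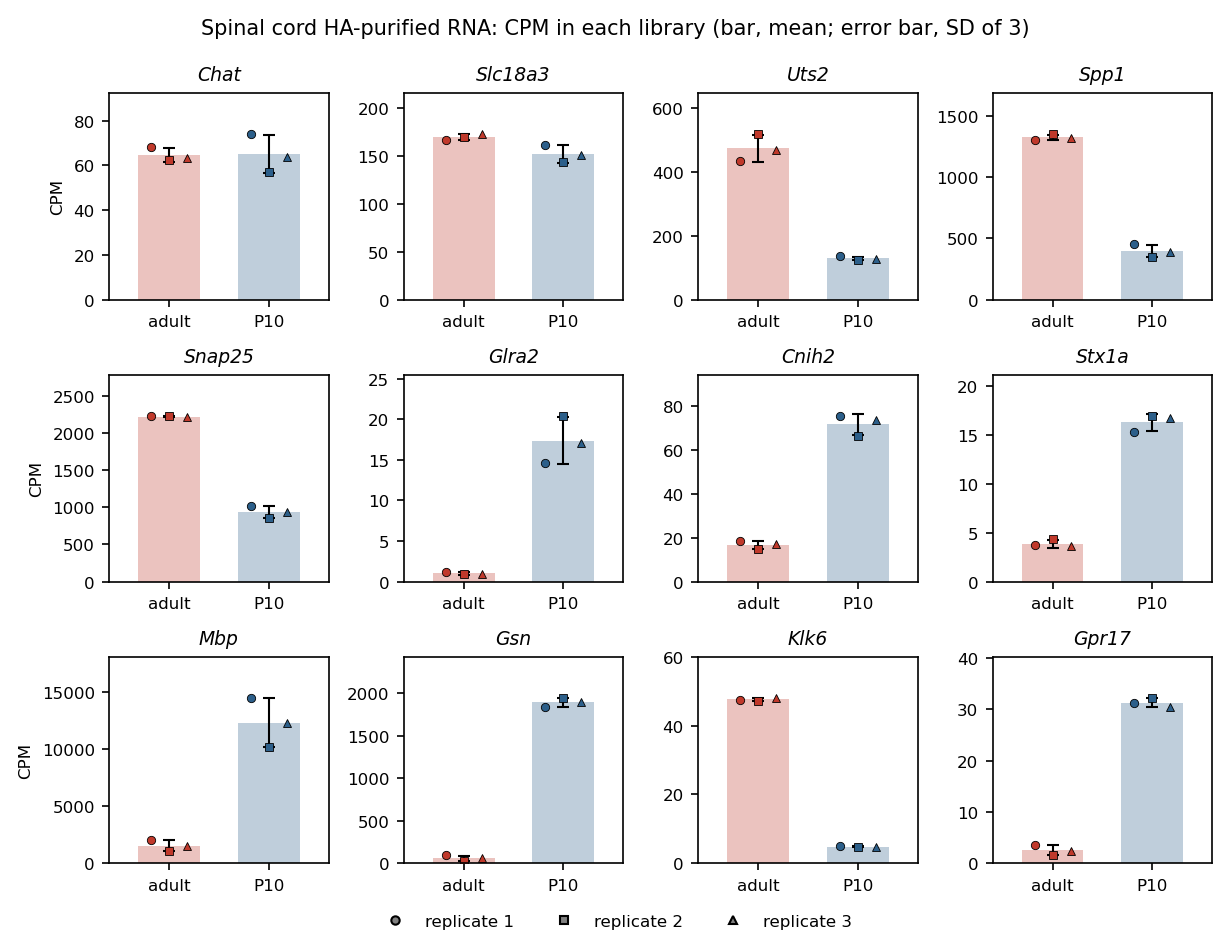
CPM of 12 genes in each spinal cord library, adult on the left and P10 on the right of each panel. Bars are means and error bars the SD of 3 libraries. Chat and Slc18a3 differ little between the ages, Uts2, Spp1, Snap25 and Klk6 are higher in every adult library, and Glra2, Cnih2, Stx1a, Mbp, Gsn and Gpr17 are lower in every adult library.

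Among the 12 largest rises were genes of several kinds. Klk6, a secreted serine protease of mature oligodendrocytes, had 47.5, 47.1 and 48.01 CPM in the adult libraries, against 4.897, 4.81 and 4.72 CPM in the P10 libraries. The replicates lay close together, and the gene was almost unread at P0.5, with a mean of 0.07096 CPM. Cd24a, a small GPI-anchored glycoprotein of young neurons, had 286, 316 and 297 CPM in adult, against 67.4, 43.5 and 55.1 CPM at P10, after 251 CPM at E15.5 and 218 CPM at P0.5, so that P10 was the low point of the 4 ages. Tspo, the outer mitochondrial membrane translocator protein, had 58.8, 60.7 and 59.02 CPM in adult, against 9.32, 13.04 and 11.99 CPM at P10, again with higher means at E15.5 (29.4 CPM) and P0.5 (21.6 CPM) than at P10. Ccdc28a, a coiled-coil protein, had 245, 249.6 and 246 CPM in adult, against 63.2, 52.6 and 55.1 CPM at P10, after means of 4.86 CPM at E15.5 and 4.62 CPM at P0.5.

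Ppp1r1b, the phosphatase inhibitor DARPP-32, had 16.1, 14.8 and 15.4 CPM in adult, against 3.01, 2.35 and 2.94 CPM at P10. Cbx7, a Polycomb chromodomain protein, had 10.6, 10.7 and 9.99 CPM in adult, against 1.29, 1.05 and 1.84 CPM at P10. Glyat, a mitochondrial glycine acyltransferase, had 15.4, 13.9 and 14.8 CPM in adult, against 1.85, 1.004 and 1.99 CPM at P10. Each of these genes stood higher in every adult library than in any P10 library. Serpinb1a, an intracellular protease inhibitor, Mrvi1, a substrate of cGMP-dependent kinase, Apol8 and Spp2 completed the rise at log2 differences of 2.52, 2.06, 2.05 and 2.04, with limma adjusted p-values between 1.19e-09 and 8.66e-06. The largest rise of all was Fabp1, a fatty acid binding protein of liver and gut, which had 0 reads in every P10 library. It had 5.995, 176 and 102 CPM in the adult libraries. Against the floor of 3 reads per P10 library the adult mean was at least 2097-fold higher with all adult libraries, at least 1192-fold without adult replicate 2, and the lowest adult library alone was at least 133-fold higher. Its call was lost without the intermediate libraries (limma adjusted p = 0.078).

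Transcripts of central myelin were lower in sum in adult than at P10, and their summed level at P10 was the highest of the 4 ages. Of 36 tested genes of central myelin and mature oligodendrocytes, 7 rose and 21 fell, and 15 of those that fell were 2-fold or more lower. Their median difference was -0.63, against -0.155 over all genes, and the counts were 6 and 20 without the intermediate libraries. Among all genes 23.6% rose and 44.3% fell, and 7.91% were called and lower by 2-fold or more. Together these genes made up 0.597% ± 0.112 of reads in adult and 2.3% ± 0.271 at P10 (SD, n = 3 each). Of the 36, 24 had their highest mean at P10 and 11 in adult. Over all 13373 genes, 14% had their highest mean at P10.

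Mbp, myelin basic protein, whose message travels into oligodendrocyte processes before it is translated, had 2008, 1095 and 1552 CPM in the adult libraries, against 14490.0, 10217 and 12260.0 CPM in the P10 libraries. The adult libraries differed among themselves without reaching any P10 library (log2 difference -3.02 ± 0.23 (SE), limma adjusted p = 2.60e-06). Without the intermediate libraries the limma adjusted p of Mbp was 0.00375. The mean of Mbp had been 39.7 CPM at E15.5 and 626 CPM at P0.5. Gsn, gelsolin, which severs actin filaments and is abundant in oligodendrocytes, had 93.2, 32.8 and 57.6 CPM in adult, against 1839, 1943 and 1894 CPM at P10. This was the largest fall of the list (log2 difference -5.05 ± 0.302 (SE), limma adjusted p = 5.75e-07), and the mean at P0.5 was 9.78 CPM. Gal3st1, the sulfotransferase that makes the myelin lipid sulfatide, had 23.9, 13.5 and 20.04 CPM in adult, against 134, 117 and 129.9 CPM at P10 (log2 difference -2.702, limma adjusted p = 1.23e-08).

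Further myelin genes were chosen after their values were seen. Mobp, an abundant basic protein of compact myelin, had 378, 239 and 314 CPM in adult, against 2402, 1572 and 1964 CPM at P10. Mog, on the outer surface of the sheath, had 59.5, 38.8 and 48.5 CPM in adult, against 158, 162 and 154 CPM at P10. Sirt2, a deacetylase of tubulin that is abundant in myelin and was not on the list, fell to 87.3, 61.6 and 76.7 CPM in adult, against 1199, 973 and 1076 CPM at P10 (log2 difference -3.84, limma adjusted p = 8.18e-10). Opalin, a sialylated protein of mature oligodendrocytes, fell least among these (log2 difference -0.67, limma adjusted p = 0.000144). The members that rose besides Klk6 included Il33, an alarmin of oligodendrocyte nuclei, with 14.4, 9.32 and 12.4 CPM in adult, against 5.07, 5.09 and 4.37 CPM at P10, and Anln, an actin-binding protein of mature myelin, with 8.57, 8.26 and 7.47 CPM in adult, against 4.44, 3.39 and 3.42 CPM at P10. Ptgds, prostaglandin D synthase, stood at 343, 275 and 309 CPM in adult, against 67.1, 85.1 and 77.5 CPM at P10, and its call was lost without the intermediate libraries (limma adjusted p = 0.0651). These messages were read in a purification driven by ChAT-Cre, and the part of RNA recovered without the tag was not measured. Here, as in all lists, fewer cells of a type and less RNA per cell cannot be told apart.

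Oligodendrocyte precursor and premyelinating genes fell as a group. All 20 tested members fell, 18 of them by 2-fold or more, with a median of -1.37, and 18 of 18 fell without the intermediate libraries. Among all genes 44.3% fell, and 7.91% were called and lower by 2-fold or more. Gpr17, a receptor of oligodendrocytes about to myelinate, had 3.66, 1.67 and 2.48 CPM in the adult libraries, against 31.3, 32.2 and 30.4 CPM in the P10 libraries. Every adult library lay below every P10 library (log2 difference -3.202 ± 0.18 (SE), limma adjusted p = 1.97e-08). Bmp4, a secreted signal that holds back differentiation, had 1.69, 0.4701 and 1.09 CPM in adult, against 14.1, 13.3 and 13.7 CPM at P10. Tcf7l2, a transcription factor of the premyelinating stage, fell to 1.89, 1.296 and 1.75 CPM in adult, against 10.7, 11.6 and 10.9 CPM at P10, and Itpr2, an intracellular calcium channel of the same stage, fell by 2.09 on the log2 scale. The precursor markers Pdgfra and Cspg4, chosen after their values were seen, had 0.862 ± 0.126 CPM in adult and 3.65 ± 0.129 CPM at P10, and 0.462 ± 0.211 CPM in adult and 1.99 ± 0.227 CPM at P10 (SD, n = 3 each).

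Growing myelin draws heavily on cholesterol synthesis. Of 24 tested genes of the pathway 4 rose and 16 fell, against 2 and 11 without the intermediate libraries, and 8 and 10 with RLE factors, with a median of -0.35. Over all genes 23.6% rose and 44.3% fell, or 35.3% and 33.6% with RLE factors. Hmgcs1 makes the precursor HMG-CoA, and had 112, 79.3 and 92.2 CPM in adult, against 219, 232 and 218 CPM at P10. Lss, which closes the sterol rings, and Idi1, an isomerase of the isoprenoid steps, fell by 1.503 and 1.26 on the log2 scale. Insig1, which retains the sterol sensor in the endoplasmic reticulum, was chosen after its values were seen and rose by 0.54.

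Most actin, myosin and spectrin genes fell, and many of them had their highest level of the 4 ages at P10. This group of 86 genes was assembled after the values were seen and has no test of its own. Of 85 genes tested 12 rose and 64 fell, 38 of them by 2-fold or more, with a median of -0.67, and 8 and 56 were called without the intermediate libraries. In 40 of the 85 (47.1%) the highest mean was at P10, against 14% of all genes. In 28 of the 85 (32.9%) the P10 mean was at least 2-fold above each of the other 3 ages, against 1.47% of all genes. Since the genes were grouped with these values known, the shares describe the group and cannot show that it departs from all genes. The summed level of the group averaged 29060.0 CPM at E15.5, 37650.0 CPM at P0.5, 26750.0 CPM at P10 and 18470.0 CPM in adult.

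Lima1, a LIM-domain protein that bundles actin filaments, had 1.45, 0.3704 and 1.26 CPM in the adult libraries, against 66.9, 51.6 and 59.9 CPM in the P10 libraries. It was low at both earlier ages as well, with means of 2.64 CPM at E15.5 and 2.16 CPM at P0.5 (log2 difference -4.94 ± 0.18 (SE), limma adjusted p = 1.44e-10 for adult minus P10). Myo6, the myosin that moves toward the minus end of actin filaments, had 9.71, 2.31 and 5.62 CPM in adult, against 130.2, 144 and 135 CPM at P10, after 1.88 CPM at P0.5. Limch1, an activator of nonmuscle myosin II, had 23.6, 13.1 and 18.3 CPM in adult, against 338, 311 and 327 CPM at P10, after 12.8 CPM at P0.5. All 3 genes had their highest mean of the 4 ages at P10. Actn4, an actinin that crosslinks actin, had 7.08, 3.87 and 5.16 CPM in adult, against 124, 100.04 and 112 CPM at P10. Sptbn1 and Sptan1, the beta and alpha spectrins of the membrane skeleton, fell by 4.14 and 3.24 on the log2 scale, and Dst, a giant linker of filaments, by 2.46.

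The heavy chains of nonmuscle myosin II, chosen after their values were seen, all fell. Myh9 had 2.24, 0.556 and 1.17 CPM in adult, against 34.4, 36.2 and 35.97 CPM at P10. Myh10, the form of neurons and other nonmuscle cells, had 35.7, 19.7 and 26.8 CPM in adult, against 318, 336 and 326 CPM at P10. Myh14 had 16.96, 8.49 and 12.5 CPM in adult, against 109, 121 and 115 CPM at P10. Every adult library of the 3 genes lay below every P10 library, with limma adjusted p-values between 1.38e-09 and 5.84e-09. Myo5a, a transport myosin of dendrites, Dbn1, the actin-binding protein drebrin of dendritic spines, and Arpc1b, a subunit of the Arp2/3 complex that branches actin, fell by 3.68, 4.02 and 3.72 on the log2 scale. Arpc1b had 40.5, 30.1 and 34.004 CPM in adult, against 472, 458 and 472 CPM at P10. Actb, cytoplasmic beta actin itself, had 1894, 1802 and 1886 CPM in adult, against 2350.1, 2144 and 2231 CPM at P10, and its small fall (log2 difference -0.27) was not called with RLE factors (adjusted p = 0.466) or without the intermediate libraries (adjusted p = 0.0731). Ppp1r12a, the targeting subunit of myosin phosphatase, which counters myosin II, rose instead (42.97, 46.8 and 44.9 CPM in adult, against 27.8, 25.4 and 26.99 CPM at P10).

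**Figure D2:**
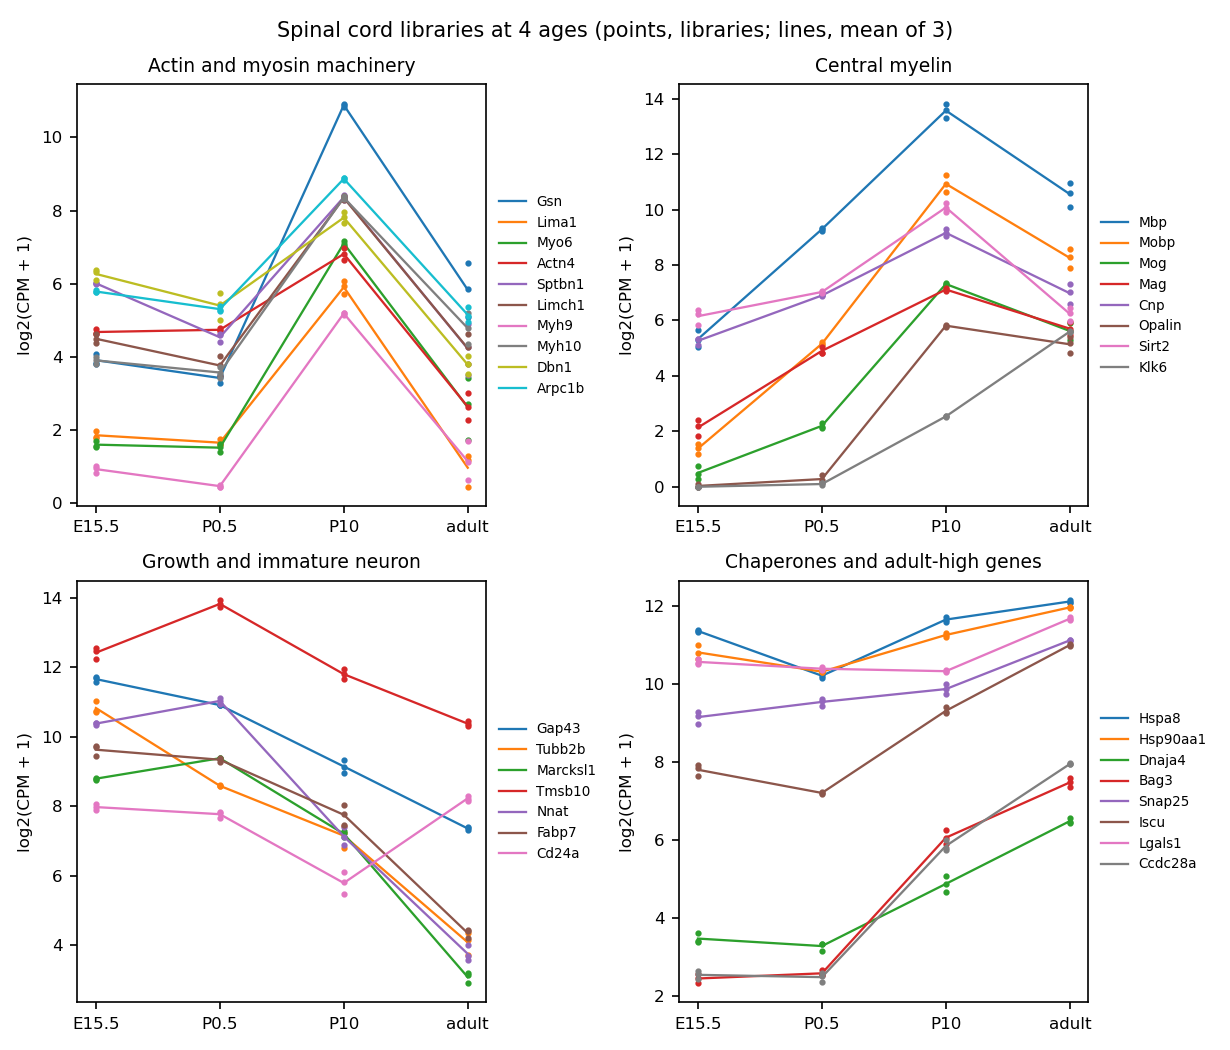
Level of selected genes in the spinal cord against age, in the order E15.5, P0.5, P10, adult, as log2(CPM + 1). Points are libraries and lines join the mean of 3. The actin and myosin genes and most myelin genes shown have their highest point at P10, the growth genes apart from Cd24a are lowest in adult, and Klk6 and the genes of the last panel are highest in adult.

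Genes of immature neurons and growing axons continued to decline. Of 44 tested, 4 rose and 33 fell (3 and 29 without the intermediate libraries), with a median of -0.51, and 36 of the 44 had their highest mean at E15.5. Among all genes 23.6% rose, 44.3% fell and 37.9% had their highest mean at E15.5. Marcksl1, a substrate of protein kinase C that regulates actin at the membrane, had 8.13, 6.51 and 7.91 CPM in the adult libraries, against 155, 138 and 148 CPM in the P10 libraries. The adult mean was the lowest of the 4 ages (log2 difference -4.12 ± 0.07 (SE), limma adjusted p = 4.38e-15). Marcks, its close relative, had 15.9, 13.2 and 14.4 CPM in adult, against 93.6, 99.9 and 97.6 CPM at P10. Tubb2b, a beta tubulin of migrating and growing neurons, had 19.7, 12.3 and 16.9 CPM in adult, against 112, 170.5 and 149 CPM at P10, after 1826 CPM at E15.5. Of genes chosen after their values were seen, Gap43, the growth cone protein, had 168, 158 and 164 CPM in adult, against 499, 648 and 559 CPM at P10, Dcx, the microtubule protein of migrating neurons, had 0.104, 0.0855 and 0.1303 CPM in adult, against 1.58, 1.64 and 1.67 CPM at P10, and the imprinted proteolipid Nnat had 15.1, 10.9 and 11.9 CPM in adult, against 116, 169 and 137 CPM at P10. All adult libraries of these genes lay below all P10 libraries. Map1b, a microtubule protein of growing axons, went the other way with 469, 486 and 485 CPM in adult, against 250.1, 214 and 228 CPM at P10.

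Neurofilaments, which set axon calibre, were near their adult level at P10. Of 27 tested genes of the axonal cytoskeleton 8 rose and 14 fell (7 and 11 without the intermediate libraries), but 12 rose and 11 fell with RLE factors, with a median of -0.18 before. Over all genes 23.6% rose and 44.3% fell, or 35.3% and 33.6% with RLE factors. Nefm, the medium neurofilament, had 4822, 5054 and 5008 CPM in adult, against 4339, 3825 and 4092 CPM at P10, a rise of 0.28 on the log2 scale (limma adjusted p = 0.000743). Nefl and Nefh, the light and heavy subunits, had 3679 ± 24.6 CPM in adult and 3432 ± 113 CPM at P10, and 1168 ± 53.8 CPM in adult and 1082 ± 28.1 CPM at P10 (SD, n = 3 each), and passed the test with RLE factors but not with library totals (limma adjusted p = 0.104 and 0.139 with library totals). The 3 neurofilament genes were chosen after their values were seen.

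Among genes of inhibitory transmission, a list that joins synthesis, transport and breakdown of GABA and glycine, including transporters of astrocytes, with postsynaptic adhesion and scaffold proteins, 0 of 12 tested rose and 8 fell in limma, or 0 and 7 without the intermediate libraries and 0 and 6 with RLE factors, with a median of -0.51. The shares over all genes were 23.6% rising and 44.3% falling, or 35.3% and 33.6% with RLE factors. Slc6a11, the GABA transporter GAT-3 of astrocytes, had 7.25, 5.498 and 5.996 CPM in adult, against 17.8, 18.7 and 17.6 CPM at P10. Abat, which degrades GABA, fell by 1.104 on the log2 scale. Nlgn2, the adhesion protein of inhibitory synapses, had 48.4, 39.6 and 47.5 CPM in adult, against 74.2, 68.8 and 70.9 CPM at P10. The 4 genes listed as markers of inhibitory neurons did not all pass. Gad1 and Gad2, which make GABA, fell (log2 differences -0.63 and -0.61), with 16.4 ± 2.45 CPM in adult and 25.9 ± 3.63 CPM at P10 for Gad1 (SD, n = 3 each). Slc32a1, the vesicular transporter of GABA and glycine, had 14.5, 10.8 and 12.8 CPM in adult, against 15.4, 16.1 and 16.8 CPM at P10, and its call was lost with RLE factors (adjusted p = 0.175) and without the intermediate libraries (adjusted p = 0.098). Slc6a5, the glycine transporter of glycinergic neurons, had 4.93, 3.09 and 3.896 CPM in adult, against 3.89, 3.72 and 3.82 CPM at P10 and did not pass (log2 difference 0.03, limma adjusted p = 0.848). Slc17a6, the vesicular glutamate transporter of excitatory spinal neurons, had 14.3, 10.6 and 12.7 CPM in adult, against 19.6, 16.2 and 18.8 CPM at P10 and fell (log2 difference -0.51, limma adjusted p = 0.000536), while Slc38a2, a glutamine transporter, rose (log2 difference 0.66). In all, 2 of the 5 tested presynaptic genes of excitatory neurons rose and 3 fell.

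The fetal glycine receptor subunit Glra2 fell furthest among the genes of glycine, GABA and ionotropic glutamate receptors. It had 1.199, 0.926 and 0.869 CPM in the adult libraries, against 14.7, 20.4 and 17.1 CPM in the P10 libraries. All adult libraries lay below all P10 libraries (log2 difference -3.19 ± 0.103 (SE), limma adjusted p = 3.47e-12), and the mean had been 111 CPM at E15.5 and 53.6 CPM at P0.5. Glra1, the subunit of mature glycine receptors, had 78.3, 67.5 and 70.6 CPM in adult, against 90.05, 82.1 and 87.995 CPM at P10, and its fall of 0.26 on the log2 scale was not called with RLE factors (adjusted p = 0.39) or without the intermediate libraries (adjusted p = 0.146). Slc12a5, the chloride extruder KCC2 that makes glycine and GABA inhibitory, had 91.5, 85.9 and 86.7 CPM in adult, against 83.2, 69.6 and 77.1 CPM at P10, a rise of 0.201 whose call was lost without the intermediate libraries (limma adjusted p = 0.134). Glra1 and Slc12a5 were chosen after their values were seen. Among 21 tested genes of glycine and GABA receptors and chloride transport 2 rose and 12 fell, or 0 and 8 without the intermediate libraries, with a median of -0.26. With RLE factors 6 rose and 9 fell. The shares over all genes were 23.6% rising and 44.3% falling, or 35.3% and 33.6% with RLE factors. Gabra4 and Gabrg3, subunits of GABA receptors, fell by 0.94 and 0.87 on the log2 scale.

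Ionotropic glutamate receptor genes fell almost throughout. Of 25 tested, 1 rose and 22 fell, with a median of -0.49. Without the intermediate libraries 1 and 20 were called, and with RLE factors 1 and 19. Over all genes 23.6% rose and 44.3% fell, or 35.3% and 33.6% with RLE factors. Cnih2, an auxiliary subunit that carries AMPA receptors to the surface, had 18.5, 14.9 and 17.3 CPM in the adult libraries, against 75.5, 66.4 and 73.7 CPM in the P10 libraries. Its relative Cnih3 had 1.51, 0.997 and 0.898 CPM in adult, against 5.51, 7.22 and 5.66 CPM at P10. At E15.5 their means had been 184 and 25.7 CPM. Cacng5 and Shisa9, other auxiliary subunits of AMPA receptors, fell by 1.13 and 1.08 on the log2 scale. Of the pore subunits, chosen after their values were seen, Gria1 had 9.696, 7.52 and 8.53 CPM in adult, against 17.6, 16.9 and 17.5 CPM at P10, and Gria2, which blocks calcium entry through AMPA receptors, had 15.1, 13.1 and 12.98 CPM in adult, against 23.4, 20.6 and 21.2 CPM at P10. Grin2b, the NMDA receptor subunit of young neurons, had 6.97, 5.498 and 5.91 CPM in adult, against 11.6, 11.2 and 11.3 CPM at P10, and Grin2a, which joins it later in development, had 0.859, 0.8405 and 0.999 CPM in adult, against 1.67, 1.46 and 1.46 CPM at P10. Grin3b, an NMDA receptor subunit of motor neurons, was the member that rose (46.6, 44.9 and 42.8 CPM in adult, against 31.4, 20.6 and 28.8 CPM at P10).

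Of 42 tested genes of the release machinery 10 rose and 24 fell, where 23.6% and 44.3% of all genes did, or 8 and 21 without the intermediate libraries, with a median of -0.41. The summed level was 7720 CPM in adult and 6569 CPM at P10. Snap25, the SNARE protein of the plasma membrane, had 2229, 2233 and 2222 CPM in the adult libraries, against 1022, 854 and 943 CPM in the P10 libraries. The adult libraries lay close together and above every P10 library (log2 difference 1.25 ± 0.08 (SE), limma adjusted p = 2.08e-09). Its partner Stx1a, syntaxin 1A, had 3.69, 4.33 and 3.59 CPM in adult, against 15.3, 16.9 and 16.7 CPM at P10, after 96.97 CPM at E15.5. Unc13a, which primes vesicles for release, had 2.19, 1.58 and 1.88 CPM in adult, against 7.12, 7.703 and 7.56 CPM at P10, and Syt4, a synaptotagmin that does not bind calcium in the usual way, had 202, 191 and 193 CPM in adult, against 84.9, 75.6 and 81.8 CPM at P10.

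Vamp1, the vesicle SNARE of motor nerve terminals, rose with 649, 636 and 660.2 CPM in adult, against 475, 383 and 425 CPM at P10, and Vamp2, the form that prevails in the forebrain, fell with 120.2, 117 and 122 CPM in adult, against 246, 222 and 234 CPM at P10. Syt2, the calcium sensor of fast release in spinal cord, had 132 ± 7.45 CPM in adult and 129 ± 8.705 CPM at P10, and Syt1, its counterpart in the forebrain, had 18.8 ± 1.69 CPM in adult and 30.7 ± 3.63 CPM at P10 (SD, n = 3 each). Syt1 fell (log2 difference -0.68, limma adjusted p = 6.95e-06), and Syt2 did not pass the test with library totals (adjusted p = 0.709) but did with RLE factors (log2 difference 0.23, adjusted p = 0.0118). These 4 genes were chosen after their values were seen.

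Of 36 tested potassium channel genes 8 rose and 12 fell (5 and 9 without the intermediate libraries), but 13 rose and 8 fell with RLE factors, with a median of -0.14 before. Over all genes 23.6% rose and 44.3% fell, or 35.3% and 33.6% with RLE factors, so the list held no larger share of rises or falls with library totals. Kcnd2, an A-type channel of dendrites, had 9.13, 5.24 and 6.2998 CPM in adult, against 18.4, 18.6 and 18.6 CPM at P10. Its auxiliary subunits Kcnip2 and Kcnip1 and the related pore subunit Kcnd3 fell too, by 1.21, 0.83 and 0.797 on the log2 scale. Kcna1, a channel beside the node of Ranvier, had 134 ± 6.03 CPM in adult and 119 ± 17.997 CPM at P10 (SD, n = 3 each) and did not pass with library totals (limma adjusted p = 0.103), but was higher with RLE factors (log2 difference 0.38, adjusted p = 0.00131). It was chosen after its values were seen.

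Of 33 tested sodium channel, calcium channel and nodal genes 6 rose and 20 fell (3 and 15 without the intermediate libraries), with a median of -0.35. With RLE factors 7 rose and 15 fell. Among all genes 23.6% rose and 44.3% fell, or 35.3% and 33.6% with RLE factors. Scn4b, a sodium channel subunit that aids rapid firing, had 46.3, 45.2 and 46.2 CPM in the adult libraries, against 20.9, 13.4 and 17.4 CPM in the P10 libraries. It was among the 6 that rose (log2 difference 1.38 ± 0.11 (SE), limma adjusted p = 4.50e-08), after a mean of 2.83 CPM at P0.5. Scn2a, the sodium channel of unmyelinated young axons, had 3.29, 2.51 and 2.72 CPM in adult, against 10.7, 10.2 and 10.4 CPM at P10. Scn3b and Cacnb3, auxiliary subunits of sodium and calcium channels, fell by 1.38 and 1.37 on the log2 scale. Cntnap1, the paranodal protein Caspr, had 9.86, 7.85 and 8.92 CPM in adult, against 18.6, 19.6 and 20.3 CPM at P10, and Scn1a, a sodium channel of mature neurons, had 33.6, 29.02 and 30.8 CPM in adult, against 23.8, 19.3 and 21.3 CPM at P10. Both were chosen after their values were seen, Cntnap1 being lower and Scn1a higher in every adult library than in any P10 library.

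Of 17 tested genes of the perineuronal net and central matrix 5 rose and 10 fell (2 and 10 without the intermediate libraries). With RLE factors 6 rose and 10 fell. Over all genes 23.6% rose and 44.3% fell, or 35.3% and 33.6% with RLE factors. The median of the list was -0.64, against -0.155 over all genes. Ncan, the proteoglycan neurocan of immature matrix, had 6.23, 5.26 and 5.92 CPM in adult, against 25.5, 25.2 and 25.1 CPM at P10. Hapln1, a link protein that ties proteoglycans to hyaluronan, had 1.36, 0.869 and 1.09 CPM in adult, against 7.21, 7.58 and 6.97 CPM at P10. Tnc, tenascin C, and Cspg5, neuroglycan C, fell by 1.05 and 1.01 on the log2 scale. Hapln2, the link protein of nodes, rose with 16.7, 15.6 and 15.8 CPM in adult, against 9.52, 9.21 and 9.27 CPM at P10, and Acan, aggrecan of mature nets, had 6.08, 7.21 and 6.53 CPM in adult, against 6.09, 3.896 and 5.34 CPM at P10, both chosen after their values were seen. The libraries of Acan overlapped, with a call that was lost without the intermediate libraries (limma adjusted p = 0.0769). Of 28 tested genes of protocadherins and synaptic adhesion 2 rose and 18 fell (1 and 14), among them Cadm2, an adhesion protein of axons and glia, with a difference of -1.39, Pcdh8 with -1.25, Lrrtm1 of excitatory synapses with -0.87 and Nlgn3 with -0.77.

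Of 28 tested astrocyte genes 5 rose and 16 fell (3 and 11 without the intermediate libraries), with a median of -0.35, where 23.6% and 44.3% of all genes rose and fell. Fabp7, the fatty acid binding protein of radial glia and young astrocytes, had 20.5, 17.6 and 20.3 CPM in the adult libraries, against 174, 263 and 218 CPM in the P10 libraries, after 794 CPM at E15.5 (log2 difference -3.405 ± 0.13 (SE), limma adjusted p = 3.71e-10). Aqp4, the water channel of astrocyte endfeet, had 25.2, 17.01 and 19.9 CPM in adult, against 75.4, 78.2 and 72.6 CPM at P10, its highest mean of the 4 ages being at P10. Vim, vimentin, and Id3, a transcriptional inhibitor, fell by 1.79 and 1.51 on the log2 scale. Genes that rose, chosen after their values were seen, were Glul, glutamine synthetase, with 167, 154 and 156 CPM in adult, against 76.5, 78.4 and 76.3 CPM at P10, Clu, clusterin, with 683, 697 and 703 CPM in adult, against 434, 379.6 and 395 CPM at P10, and S100b, a calcium-binding protein that motor neurons also make, with 2112, 2166 and 2110.4 CPM in adult, against 1209, 1169 and 1201 CPM at P10.

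Of 22 tested microglial genes 5 rose and 8 fell (3 and 4 without the intermediate libraries, 6 and 5 with RLE factors), with a median of -0.15, which is no more than the 23.6% and 44.3% of all genes that rose and fell. Fcrls and P2ry12, which mark resting microglia, had 2.22 ± 0.705 CPM in adult and 7.25 ± 0.983 CPM at P10, and 1.41 ± 0.317 CPM in adult and 3.35 ± 0.348 CPM at P10 (SD, n = 3 each), and both fell. Other microglial markers did not all fall. Cx3cr1 fell (log2 difference -0.61), and Csf1r did not pass (limma adjusted p = 0.257). Tmem119 did not pass with library totals (limma adjusted p = 0.144) but was higher with RLE factors (log2 difference 0.35, adjusted p = 0.0233). Ctss, a lysosomal protease, rose with 23.6, 20.9 and 23.5 CPM in adult, against 9.37, 11.5 and 9.64 CPM at P10. Lgals3 was higher in adult (log2 difference 0.89), with a call that was lost without the intermediate libraries (limma adjusted p = 0.19). Complement genes mostly rose, 7 of 11 tested against 3 that fell (5 and 1 of 10 without the intermediate libraries), with a median of 0.68. C3, the central component, had 6.13, 4.34 and 4.504 CPM in adult, against 1.15, 1.34 and 1.09 CPM at P10, C4b had 2.901, 2.21 and 2.56 CPM in adult, against 0.7805, 0.797 and 0.679 CPM at P10, and Cd55, which shields cells from complement, had 16.6, 14.7 and 16.2 CPM in adult, against 8.22, 7.87 and 8.34 CPM at P10. All adult libraries of these 3 genes lay above all P10 libraries. Serping1, the C1 inhibitor, was lower (log2 difference -0.896), and its call was lost in the same way (limma adjusted p = 0.193).

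Most of the tested vessel and blood genes fell. Of 25 tested endothelial and pericyte genes 2 rose and 18 fell (2 and 12 of 23 without the intermediate libraries), with a median of -0.65. Among all genes 23.6% rose and 44.3% fell. Cldn5, the tight junction protein of the blood-brain barrier, had 7.12, 6.82 and 7.14 CPM in adult, against 26.2, 34.5 and 32.1 CPM at P10. Myh11 of smooth muscle, Kdr, the receptor of VEGF, and Rgs5 of pericytes fell by 2.48, 1.42 and 1.14 on the log2 scale. Haemoglobin messages, which come from red cells and their precursors, fell too, 6 of the 8 erythroid genes tested falling and 0 rising (6 of 6 fell without the intermediate libraries). Hba-a1 had 604, 494 and 554 CPM in adult, against 2092, 2847 and 2424 CPM at P10. Hba-a2, Hbb-bs and Hbb-bt fell by 2.13, 2.12 and 2.21 on the log2 scale, but these pairs of near-identical genes share sequence, so the division of reads within a pair is uncertain.

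Transcripts of tissues beside the spinal cord differed between replicates of the same age. Tnnc2, troponin C of fast muscle, had 9.96, 2.73 and 5.95 CPM in the adult libraries, against 27.1, 719 and 347 CPM in the P10 libraries. P10 replicate 2 stood far above P10 replicate 1, and all P10 libraries still exceeded all adult libraries. The fall was called with all libraries (limma adjusted p = 0.00513) and not without the intermediate ones (adjusted p = 0.125). Col1a1, collagen of fibroblasts and meninges, had 1.11, 0.3704 and 0.579 CPM in adult, against 8.02, 54.6 and 31.2 CPM at P10, and Avil, advillin of sensory ganglion neurons, had 0.414, 0 and 0.188 CPM in adult, against 0.918, 35.8 and 17.3 CPM at P10.

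Summed over the list, 20 tested muscle genes gave 37.2 to 56.4 CPM in the adult libraries, against 135 to 1408 CPM in the P10 libraries, and 14 fell with all libraries but 3 of 19 without the intermediate ones. Acta1, skeletal muscle actin, was one of the 3 (2.26, 1.14 and 1.88 CPM in adult, against 22.7, 121 and 75.5 CPM at P10). Myl1 and Tnnt3, a light chain and a troponin of fast fibres, had log2 differences of -4.64 and -3.601, with adjusted p-values of 0.102 and 0.14 without the intermediate libraries. Of 29 tested fibroblast and meningeal genes 0 rose and 25 fell (0 and 17 of 28), and Col3a1 and Col1a2 had log2 differences of -4.198 and -2.96. Their sum was 51.5 to 55.4 CPM in the adult libraries, against 153 to 370 CPM in the P10 libraries. Of 13 Schwann cell genes 1 rose and 11 fell (1 and 9 of 12), including Pmp2, Prx and Fam178b by 3.23, 2.58 and 2.56. Of 13 genes of dorsal root ganglion neurons 2 rose and 7 fell (0 and 4 of 11), and Scn10a, which defines nociceptors, was too low to be tested, with 0.0148, 0 and 0 CPM in adult, against 0.0153, 0.457 and 0.226 CPM at P10. The part that carry-over of neighbouring tissue had in these falls was not tested.

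**Figure D3:**
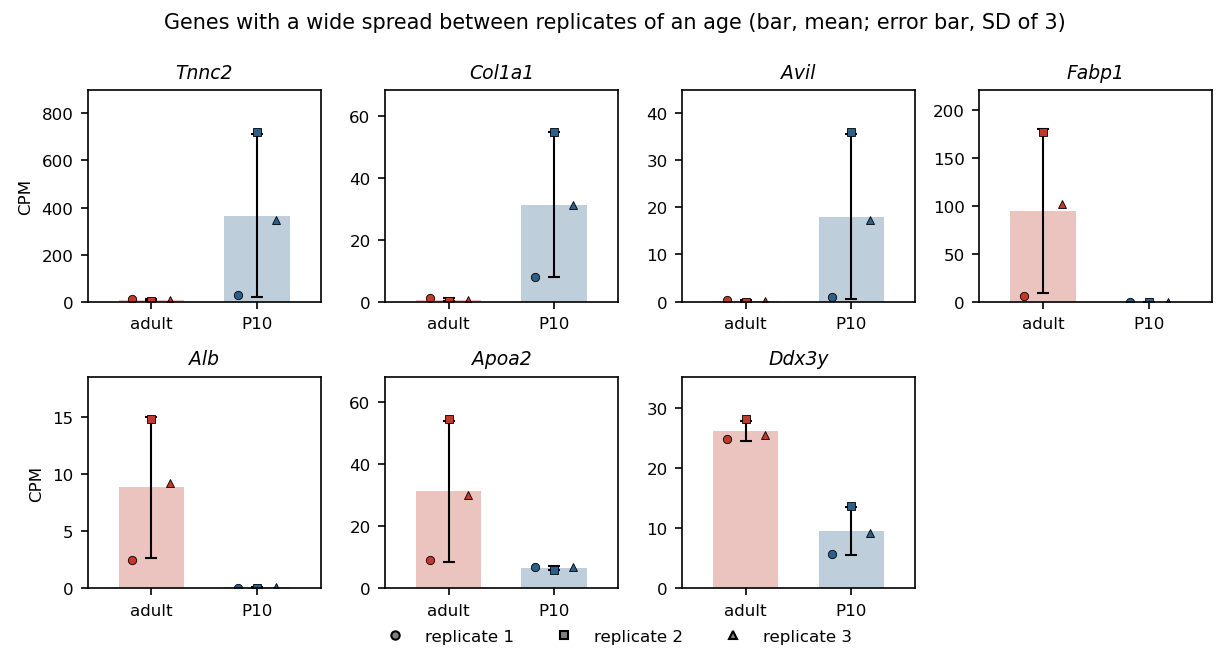
CPM of 7 genes in each spinal cord library, adult on the left and P10 on the right of each panel. Bars are means and error bars the SD of 3 libraries. Tnnc2, Col1a1 and Avil are highest in P10 replicate 2, Fabp1, Alb and Apoa2 are highest in adult replicate 2, and in both cases replicate 3 lies between replicates 1 and 2.

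Liver transcripts, grouped after the values were seen, differed between replicates within the adult group. Of 20 tested hepatocyte genes 12 rose and 1 fell, but 3 and 0 did without the intermediate libraries. Among all genes 23.6% rose and 44.3% fell. Counts of a group chosen with its values known cannot show that it departs from all genes. Alb, serum albumin, had 2.46, 14.8 and 9.25 CPM in adult, against 0.0612, 0.0443 and 0.121 CPM at P10, and Apoa2, an apolipoprotein, had 8.97, 54.5 and 30.2 CPM in adult, against 6.902, 5.89 and 6.71 CPM at P10. Adult replicate 2 was the highest library for Alb, Apoa2 and Fabp1. Without the intermediate libraries the limma adjusted p-values of Alb and Apoa2 were 0.149 and 0.241. The Y-linked gene Ddx3y had 24.9, 28.2 and 25.5 CPM in adult, against 5.77, 13.7 and 9.23 CPM at P10, and its call was lost as well (adjusted p = 0.165). Eif2s3y, also Y-linked, overlapped between the ages and did not pass with all libraries (limma adjusted p = 0.122). The Y-linked Uty and Kdm5d were too low to be tested, with means of 1.07 and 0.299 CPM in adult, against 0.484 and 0.299 CPM at P10. The Y-linked genes were chosen after their values were seen.

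Most cell cycle genes fell. Of 42 tested, 3 rose and 34 fell, 14 of them by 2-fold or more, with a median of -0.73, and 3 and 33 of 41 were called without the intermediate libraries. Among all genes 23.6% rose and 44.3% fell, and 7.91% were called and lower by 2-fold or more. Cenpa, the histone of the centromere, had 0.666, 0.6695 and 0.478 CPM in the adult libraries, against 6.11, 9.58 and 6.14 CPM in the P10 libraries. Ube2c, which tags mitotic cyclins for destruction, had 0.296, 0.114 and 0.333 CPM in adult, against 2.33, 4.99 and 3.32 CPM at P10. Hmgb2, a chromatin protein of dividing cells, and Cdca8, a subunit of the chromosomal passenger complex, fell by 1.81 and 1.41 on the log2 scale. In each of these genes all adult libraries lay below all P10 libraries, with limma adjusted p-values between 6.70e-10 and 7.61e-07. Mitotic genes often carry a CHR element, TTTGAA, near the start of transcription. In windows of 250 bases before to 50 after the RefSeq start (build GRCm38.p6), searched on both strands, TTTGAA was present in 17.9% of 32851 promoters and in 16 of the 37 cell cycle genes with a promoter entry. It was present in 11 of the 25 of them that fell. CCAAT was present in 37.4% of promoters, in 28 of the 37 genes and in 20 of the 25 that fell. Here and below, the percentage counts each promoter entry, while a gene counted if any of its entries held the element. This raises the gene counts relative to the percentage. Windows around the element are shown for 3 of the genes that fell, 5′ to 3′ on the strand of the gene, with TTTGAA or its reverse complement in capitals. Cdc20, an activator of the anaphase ubiquitin ligase, was chosen after its values were seen and had 0.562, 0.242 and 0.362 CPM in adult, against 2.07, 1.99 and 2.49 CPM at P10.
Cenpa, chr5:30666891-30666918, plus strand: gcgggtgatttTTTGAActgctggcgac
Ube2c, chr2:164769889-164769916, plus strand: gagggttgcaaTTCAAAcgcgggcggcg
Cdc20, chr4:118437345-118437372, minus strand: gacagttgggtTTTGAAggagccaatga

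More chaperone genes rose than fell. The group of 51 was assembled after the values were seen, and 29 rose and 7 fell in limma, with a median of 0.34, while 41 and 0 were called with RLE factors, and 26 and 1 without the intermediate libraries. In 52.9% of them the highest mean of the 4 ages was in adult, against 20.7% of all genes. As the group was chosen with these values known, this cannot show that it departs from all genes. Hspa8, the constitutive Hsc70 chaperone, had 4552, 4357 and 4432 CPM in adult, against 3363, 3104 and 3204 CPM at P10, and Hsp90aa1, cytosolic Hsp90, had 4000.0, 3964 and 4043 CPM in adult, against 2539.9, 2363 and 2454 CPM at P10. Hsph1, the Hsp110 exchange factor of Hsp70, had 181, 186 and 178 CPM in adult, against 79.3, 67.9 and 72.3 CPM at P10. Bag3, which directs misfolded proteins to autophagy, had 164, 190.4 and 179 CPM in adult, against 75.02, 58.4 and 65.3 CPM at P10, and Dnaja4, a co-chaperone, had 85.4, 93.9 and 87.3 CPM in adult, against 32.9, 24.6 and 28.4 CPM at P10. Hspb1, the small heat shock protein Hsp27 of motor and sensory neurons, had 450.2, 555 and 504 CPM in adult, against 238, 181 and 203 CPM at P10, and Hspa5, the Hsp70 of the endoplasmic reticulum, had 259.6, 285 and 273 CPM in adult, against 137, 134 and 138 CPM at P10. Every adult library of these genes stood above every P10 library. Hspa1a and Hspa1b, the inducible Hsp70 genes, are near-identical copies, so each value is uncertain, and both rose (1.66 and 1.57 on the log2 scale).

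The heat shock element, written as GAA, TTC and GAA with any 2 bases between each, was searched in the same windows and on both strands. It was present in 0.603% of 32851 promoters and in 5 of the 42 chaperone genes with a promoter entry. Hspd1 and Hspe1 are neighbours on opposite strands and share the same matches, so they are not separate cases. Of these 5, Hsph1 and Chordc1, an Hsp90 partner with 38.3, 39.1 and 36.7 CPM in adult, against 21.1, 19.7 and 20.6 CPM at P10, rose. Hspd1, the mitochondrial Hsp60, had 270.5 ± 5.24 CPM in adult and 253 ± 7.63 CPM at P10 (SD, n = 3 each) and was not called with library totals (adjusted p = 0.164), nor were Hspe1 and Dnajb6, but all 3 were called higher with RLE factors (Hspd1 log2 difference 0.29, adjusted p = 0.000753). A window around the element or its reverse complement, in capitals, is shown for the genes described.
Hsph1, chr5:149636280-149636308, minus strand: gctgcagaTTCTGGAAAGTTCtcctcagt
Chordc1, chr9:18292255-18292283, plus strand: tgcaaccgGAACGTTCGGGAAaattcctg
Hspd1, chr1:55088056-55088084, minus strand: gcggggccTTCCGGAAGGTTCtagaacgg

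Among the protein turnover genes grouped here more rose than fell. Of 45 proteasome and ubiquitin genes, again grouped after the values were seen, 29 rose and 8 fell (16 and 6 without the intermediate libraries), with a median of 0.23. Among all genes 23.6% rose and 44.3% fell. As the group was chosen with these values known, its counts cannot show that it departs from all genes. Psmc5, an ATPase of the proteasome cap, had 1133, 1112 and 1150.0 CPM in adult, against 519.5, 516 and 512 CPM at P10, and Pomp, which assembles the core, had 2802, 2904 and 2837 CPM in adult, against 1589, 1679 and 1631 CPM at P10. Psme1, an interferon-induced activator subunit, fell with 21.2, 17.6 and 20.2 CPM in adult, against 46.5, 55.5 and 52.2 CPM at P10. Outside the lists, Iscu, the scaffold for iron-sulfur clusters, had 2014, 2065 and 2071 CPM in adult, against 680.2, 611 and 619 CPM at P10, and Lgals1, the lectin galectin-1, had 3220.0, 3373 and 3228 CPM in adult, against 1281, 1275 and 1306 CPM at P10. Both were chosen after their values were seen, and both rose more than 2-fold.

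Ribosomal protein genes changed little in size, and their direction depended on scaling. Of 82 tested, 10 rose and 41 fell with library totals, but 24 rose and 16 fell with RLE factors, and 5 and 23 were called without the intermediate libraries. Their summed share was 8.03% ± 0.104 of reads in adult and 8.56% ± 0.147 at P10 (SD, n = 3 each). Rps2, Rpsa, Rplp0 and Rpl41 had the largest falls, by 1.09, 0.94, 0.91 and 0.82 on the log2 scale, and were called with RLE factors too. Rpsa, which also serves as a laminin receptor, had 494, 431 and 462 CPM in adult, against 944, 822 and 900.3 CPM at P10. Ribosomal protein genes have many processed copies, and reads shared with them make single values uncertain.

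Of 43 translation factor genes 12 rose and 18 fell (21 and 11 with RLE, 10 and 14 without the intermediate libraries). Over all genes 23.6% rose and 44.3% fell, or 35.3% and 33.6% with RLE. With library totals the list was thus close to all genes. Eef1a1, the elongation factor that motor neurons replace by Eef1a2 as they mature, had 443, 326 and 387 CPM in the adult libraries, against 1186, 1235 and 1209.7 CPM in the P10 libraries. Its mean had been 3074 CPM at E15.5 and 1578 CPM at P0.5 (log2 difference -1.66 ± 0.11 (SE), limma adjusted p = 1.97e-08 for adult minus P10). Eef1a2, chosen after its values were seen, rose by 0.28 on the log2 scale, with 93.6, 87.1 and 91.8 CPM in adult, against 75.5, 70.7 and 77.3 CPM at P10. Eif3l, a subunit of initiation factor 3, and Pabpc1, the poly(A)-binding protein, fell by 1.26 and 1.19 on the log2 scale, and Eif5a2, an elongation factor of neurons among other cells, had 40.96, 39.4 and 37.8 CPM in adult, against 23.02, 18.4 and 19.7 CPM at P10.

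Respiratory chain genes held 19.3% ± 0.462 of reads in adult and 17.9% ± 0.341 at P10 (SD, n = 3 each). Of 75 tested 26 rose and 25 fell, none by 2-fold, and 40 and 11 were called with RLE factors, 19 and 14 without the intermediate libraries. Ndufb3, a subunit of complex I, had 1479.9, 1578 and 1555 CPM in adult, against 948, 959 and 888 CPM at P10. Ndufs1, the largest subunit of that complex, went the other way with 51.7, 39.2 and 45.2 CPM in adult, against 81.4, 77.8 and 79.2 CPM at P10, and Uqcrc2 and Cyc1 of complex III fell by 0.64 and 0.602 on the log2 scale. Of 20 glycolysis genes 5 rose and 9 fell (3 and 9, or 9 and 8 with RLE). With library totals this was close to the 23.6% and 44.3% of all genes that rose and fell. Pkm, pyruvate kinase, had 1123, 1063 and 1113 CPM in adult, against 716, 625 and 661 CPM at P10, while Ldha, the lactate dehydrogenase subunit of glycolytic cells, had 38.2, 36.8 and 39.1 CPM in adult, against 87.05, 109.6 and 95.6 CPM at P10, and Hk1 and Pgam1 fell by 1.14 and 0.76 on the log2 scale.

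Of 19 tested immediate early genes, which respond to activity and injury, 8 rose and 5 fell (6 and 2 without the intermediate libraries). With RLE factors 9 rose and 4 fell. For each list of this paragraph the shares over all genes are 23.6% rising and 44.3% falling, or 35.3% and 33.6% with RLE factors. Atf3 had 2.35, 3.28 and 3.11 CPM in adult, against 0.0918, 0.9002 and 0.618 CPM at P10, Junb had 10.3, 11.3 and 11.4 CPM in adult, against 4.94, 3.88 and 4.03 CPM at P10, and Fos had 9.64, 8.63 and 8.66 CPM in adult, against 4.76, 4.57 and 4.61 CPM at P10. All adult libraries stood above all P10 libraries for these 3 genes. Dusp1, a phosphatase induced with them, rose by 0.84. Of 16 genes responsive to glucocorticoids, metallothioneins included, 9 rose and 5 fell (6 and 4). Fkbp5, which binds the receptor's chaperone, had 35.2, 34.9 and 36.1 CPM in adult, against 18.5, 13.7 and 14.8 CPM at P10, Sgk1, a kinase, had 25.6, 20.3 and 21.5 CPM in adult, against 10.6, 11.1 and 12.2 CPM at P10, and Lcn2, a lipocalin of injured tissue, rose by 0.82 on the log2 scale, while Cdkn1a, the p21 inhibitor of the cell cycle, fell by 0.88. Of 17 clock genes 7 rose and 2 fell (3 and 1), Bhlhe41 with 164, 129.7 and 145 CPM in adult, against 83.9, 78.4 and 81.4 CPM at P10, and Cry1 with 2.96, 2.98 and 2.43 CPM in adult, against 5.03, 4.52 and 5.19 CPM at P10. Nr1d2 and Ciart, repressors in the clock, rose by 0.49 and 0.42. The hour of collection was not analysed here.

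Antigen presentation and interferon genes split into members that rose and members that fell. Of 32 tested 11 rose and 9 fell, or 8 and 3 without the intermediate libraries, with a median of -0.05. With RLE factors 11 rose and 7 fell. Among all genes 23.6% rose and 44.3% fell, or 35.3% and 33.6% with RLE factors. H2-D1, a class I histocompatibility chain, had 79.6, 81.4 and 81.2 CPM in the adult libraries, against 40.95, 33.4 and 37.1 CPM in the P10 libraries. B2m, its partner beta-2 microglobulin, had 33.5, 31.8 and 36.1 CPM in adult, against 18.8, 18.2 and 22.03 CPM at P10, and was chosen after its values were seen. Ifi27 and Lgals3bp, both induced by interferon, rose by 0.96 and 0.99 on the log2 scale. Ifitm2, a membrane protein that blocks virus entry, had 7.62, 8.66 and 7.299 CPM in adult, against 12.8, 26.98 and 20.6 CPM at P10, with P10 replicate 1 below replicate 2, and its call was lost without the intermediate libraries (limma adjusted p = 0.0515). The core of the interferon-stimulated response element, GAAA and GAAA with any 2 bases between, was present in 3.44% of 32851 promoters and in 14 of the 33 members with a promoter entry, on either strand. It was present in 3 of the 8 of them that rose and in 2 of the 8 that fell. A window around it, in capitals, is shown for a gene of each direction.
B2m, chr2:122147539-122147566, plus strand: taagaacatGAAACTGAAAatgggaaag
Ifitm2, chr7:140955989-140956016, minus strand: caccaacagGAAAAGGAAAttgctagag

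Of 27 tested neuropeptide genes 8 rose and 12 fell (6 and 10 without the intermediate libraries), with a median of -0.03. These counts lay near the shares over all genes, of which 23.6% rose and 44.3% fell. Sst, somatostatin of dorsal and ventral interneurons, had 171, 158 and 169 CPM in the adult libraries, against 679, 784 and 750.2 CPM in the P10 libraries. Tac1, the precursor of substance P, had 12.95, 9.15 and 12.6 CPM in adult, against 37.5, 49.9 and 44.05 CPM at P10, and Npy, neuropeptide Y, had 17.5, 16.2 and 18.2 CPM in adult, against 38.1, 47.9 and 44.1 CPM at P10. Ucn, urocortin, rose with 25.2, 29.8 and 26.6 CPM in adult, against 11.1, 10.01 and 10.1 CPM at P10. Calca, the precursor of CGRP, which motor neurons make, had 1088, 1274 and 1158 CPM in adult, against 850.1, 737 and 808 CPM at P10, and was chosen after its values were seen. Its call was lost without the intermediate libraries (limma adjusted p = 0.0748).

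Of 24 neurotrophic factor and receptor genes 4 rose and 14 fell (2 and 7 without the intermediate libraries). The shares to set beside each list of this paragraph are 23.6% of all genes rising and 44.3% falling. Gfra2, the receptor of neurturin, had 5.14, 4.19 and 4.81 CPM in adult, against 17.5, 16.5 and 15.7 CPM at P10. Igf1 fell by 1.16 on the log2 scale, while the lower level of Ngfr, a neurotrophin receptor, lost its call without the intermediate libraries (limma adjusted p = 0.0867). Of 23 calcium-binding genes 8 rose and 12 fell (6 and 10). Hpca, hippocalcin, had 28.2, 26.8 and 26.3 CPM in adult, against 90.2, 85.6 and 91.2 CPM at P10, and Camk2a, S100a6 and Nrgn fell by 1.18, 1.15 and 0.99 on the log2 scale. Of 29 Hox genes, which record position along the body axis, 8 rose and 8 fell (5 and 6 of 23). Hoxd9 had 7.77, 8.13 and 7.39 CPM in adult, against 3.41, 2.04 and 2.71 CPM at P10, and Hoxb8 had 10.6, 8.83 and 10.7 CPM in adult, against 19.2, 17.6 and 18.5 CPM at P10. Hoxb9 fell by 0.7996 on the log2 scale, and Hoxb5, at 36.5, 39.4 and 39.8 CPM in adult against 29.7, 15.4 and 22.5 CPM at P10, lost its call without the intermediate libraries (limma adjusted p = 0.275). Of 16 ependymal and cilia genes 3 rose and 5 fell (1 and 3), led by Mia, Riiad1 and Spag6l, with log2 differences of -1.04, -0.77 and -0.43, and Cfap126 with 0.45.

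Most imprinted and fetal growth genes fell. Of 21 tested 2 rose and 15 fell (1 and 13 without the intermediate libraries), with a median of -0.62. Among all genes 23.6% rose and 44.3% fell. Dlk1, a Notch-related inhibitor of differentiation, had 6.51, 5.53 and 5.87 CPM in the adult libraries, against 32.6, 35.9 and 32.2 CPM in the P10 libraries. Igf2, the fetal growth factor, had 1.14, 0.584 and 0.999 CPM in adult, against 9.56, 19.9 and 13.8 CPM at P10, with P10 replicate 2 about 2-fold above replicate 1. Cdkn1c, the cell cycle inhibitor p57, and Asb4, a ubiquitin ligase adaptor, fell by 1.69 and 1.66 on the log2 scale. All adult libraries of the 4 genes lay below all P10 libraries.

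**Figure D4:**
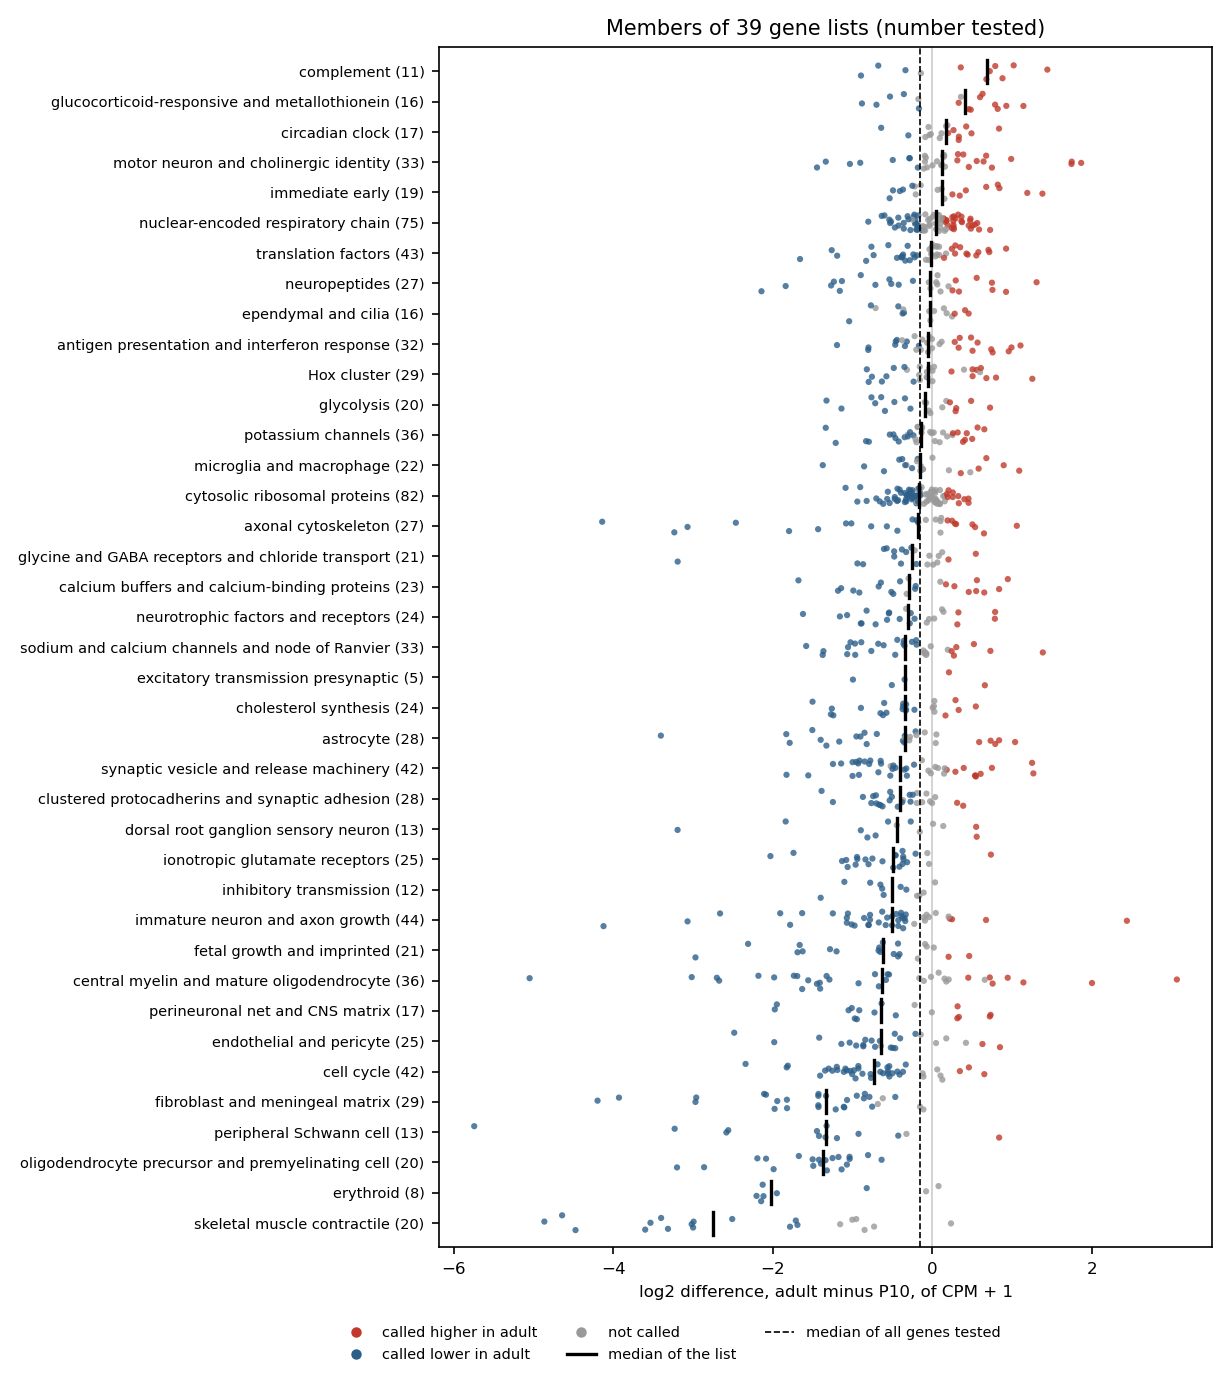
Log2 difference, adult minus P10, of the tested members of 39 gene lists, with the number tested in brackets. Each point is a gene, the bar is the median of a list and the dashed line the median of all genes at -0.155. The lists of muscle, erythroid, oligodendrocyte precursor, Schwann cell and fibroblast genes lie farthest to the left, and complement genes farthest to the right.

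For the 16 named genes of the imprinted, cell cycle, interferon and ribosomal lists, the change from P10 to adult was set against that in Cre-positive diaphragm. Over all genes the change differed between tissues in 34.3% of 14831 tested (limma, interaction term). Of the 16 named genes 12 differed, and 8 of the 12 also without the intermediate libraries of adult and P10. The 16 were picked for their large change in these same spinal cord libraries. Their share can therefore not be compared with that of all genes. Igf2 fell in both tissues and less in spinal cord, where the log2 change was -2.97, against -6.67 in diaphragm (difference 3.697 ± 0.429 (SE), limma adjusted p = 2.81e-06). Rpsa fell in spinal cord and rose in diaphragm, with changes of -0.94 and 0.395 (difference -1.34 ± 0.137 (SE), limma adjusted p = 6.2e-07). Ifi27 rose in spinal cord and fell in diaphragm, with changes of 0.96 and -0.79 (limma adjusted p of the difference = 9.93e-06). Cenpa fell in both, and its difference of -0.46 did not pass (limma adjusted p = 0.289).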

How the data were processed

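RNA was extracted with an RNeasy micro kit and libraries were made by the BGI protocol, per the labels' protocols. The authors deposited a table of 18845 genes in CPM, each column adding up to 1000000. Bowtie2 2.2.5, RSEM 1.2.12 and mm10 are named in the submitters' processing notes, with no role or order. Dividing each column by the value of 1 read gave values within 0.1 of a whole number for all values (100%) of the spinal cord libraries, and these reads served edgeR. The intermediate library of each group was found by fitting each replicate as a weighted sum of the others.

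Samples were grouped by their labels. The tests used limma 3.58.1 (trend and robust options, R 4.3.3) on log2(CPM + 1), for genes with at least 1 CPM in 3 or more of the 12 spinal cord libraries, which share 1 estimate of the spread. Every adjusted p in the text is limma's with Benjamini-Hochberg adjustment over all genes tested, threshold 0.05, unless RLE factors, which were applied to CPM before limma, are named. The tissue comparison was an interaction term over 24 Cre-positive libraries. The methods were tested on simulated data. Intervals of counting error were not computed, and with 3 libraries a group the spread between libraries limits the precision.

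Named genes were the 12 largest differences in each direction (group mean of at least 10 CPM, no overlap between ages), the 4 called members of each list with the largest difference, and Chat, Slc18a3, Slc5a7 and Rpl22. A few genes that met this rule are not reported here. The members and the 39 lists were chosen with earlier results of these data known. Promoter windows come from RefSeq (GRCm38.p6), matched by gene ID. The sterol regulatory element of the low-density lipoprotein receptor promoter was searched too. It was present in 0.0913% of promoters and in 0 of 17 cholesterol synthesis genes with a promoter entry. Alternatives were the pseudocount (0.1), no filter, quantile and RLE scaling, edgeR 4.0.16 on recovered reads, only the 6 libraries compared, a replicate block, limma without its trend and robust options, leaving out each library, and leaving out the intermediate libraries, which for all 4 ages was chosen after seeing the data.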

Additional observations from a re-analysis of the deposited data

Results flagged for a closer look

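The change between P10 and adult differed between spinal cord and Cre-positive diaphragm in 12 of the 16 named genes tested, by limma's interaction term at an adjusted p under 0.05. These genes were picked for a large change in the same spinal cord libraries, which favours a difference. Values are the log2 change in spinal cord minus that in diaphragm. Among imprinted and fetal growth genes the differences were 3.70 for Igf2, 3.26 for Dlk1, 2.73 for Cdkn1c and -1.93 for Asb4, where the first 3 fell further in diaphragm. Among cell cycle genes they were 1.19 for Ube2c and 1.21 for Hmgb2. Among interferon genes they were 0.95 for H2-D1, 1.63 for Lgals3bp and 1.74 for Ifi27. Among ribosomal protein genes they were -0.78 for Rps2, -1.34 for Rpsa and -0.58 for Rpl41. Without the intermediate libraries of adult and P10 the differences of H2-D1, Lgals3bp, Hmgb2 and Rpl41 did not pass. Diaphragm RNA comes from another purification of another tissue, and its part in these differences was not tested.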

How the results depend on the processing

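Between 8248 and 8742 genes were called when each of the 6 libraries was left out in turn, 2803 to 3157 higher and 5401 to 5915 lower. The tissue difference of the adult versus P10 change held for 4304 to 5341 genes. For it, each Cre-positive adult and P10 library of both tissues was left out in turn. Scaling set the split: 34.7% of called genes were higher with library totals, 51.2% with RLE factors, 50.8% with edgeR on recovered reads (9201 called) and 54.9% with quantile scaling, where 4881 were higher. Without the intermediate libraries of all 4 ages 6338 genes were called, 2056 of them higher, and edgeR without them called 3276 lower. That tissue difference held for 2306 genes without the intermediate libraries, with fewer libraries in that fit. The replicate block gave 9266 calls (3240 higher and 6026 lower) and 5103 for the tissue difference. Correlations between the deviations of same-numbered adult and P10 libraries were -0.05, -0.047 and 0.009. At both ages the intermediate library lay close to a mixture of the other replicates, so these values are not independent of each other. They cannot decide whether the numbers pair the libraries. Of 259 named genes called, 219 were called alike in every alternative that tested them. Chodl changed sign, with 0.0088 under RLE factors, 0.014 with edgeR and 0.012 with edgeR without the intermediate libraries, and Uqcr11 did with 0.20 under quantile scaling. For both, the cause was not tested.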
